A study of Rattus norvegicus with 9 samples.

Results

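The endoplasmic reticulum (ER) folding and secretory genes described here are 42 named genes of the ER: chaperones, protein disulfide isomerases, collagen chaperones, stress sensors, degradation factors, translocon subunits and export factors. They were chosen by gene symbol, and 42 of the 42 were found among the 17298 genes of the deposited table. Messenger RNA was sequenced from cultured rat synovial fibroblasts, which form the lining of joints, in 9 libraries. The co-culture group (3 libraries) received the inflammatory cytokine IL-1β and shared a transwell with dermal fibroblasts, which sat in the upper chamber, apart from the synovial fibroblasts below. The IL-1β group (3 libraries) received IL-1β in normal culture, and the control group (3 libraries) was in normal culture without IL-1β. All 3 groups have the genotype label WT. The labels give no dose or duration of IL-1β, no strain or age, and none mentions an empty upper chamber for the IL-1β and control groups. There was no group with dermal fibroblasts and without IL-1β, so the co-culture comparisons hold only for cells given IL-1β.

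Proteins that enter the secretory route are threaded into the ER through the Sec61 channel, folded there by BiP and other chaperones, cross-linked by disulfide isomerases and packed into COPII vesicles. When unfolded proteins accumulate, the sensors IRE1, PERK and ATF6 start the unfolded protein response, which raises transcription of many of these genes. Fibroblasts put much of this capacity into collagen, which needs its own chaperones, and synovial fibroblasts are a main source of secreted mediators and matrix in the inflamed joint.

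Many ER chaperone promoters carry short elements named for the unfolded protein response. Promoters of members without a match are not shown. The 6 promoters below belong to members with a match to ERSE or ERSE-II, which 11 members had. They come from RefSeq (assembly GRCr8, whose coordinates are given), in 5′ to 3′ direction of the gene, and the capitals mark matches to 3 motifs searched on both strands: ERSE (CCAAT, any 9 bases, CCACG), ERSE-II (ATTGG, any base, CCACG) and UPRE (TGACGTGG).
Hspa5, chr3:38452958-38453015, plus strand: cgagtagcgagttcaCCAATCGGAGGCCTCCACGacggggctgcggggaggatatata
Hsp90b1, chr7:23012322-23012484, minus strand: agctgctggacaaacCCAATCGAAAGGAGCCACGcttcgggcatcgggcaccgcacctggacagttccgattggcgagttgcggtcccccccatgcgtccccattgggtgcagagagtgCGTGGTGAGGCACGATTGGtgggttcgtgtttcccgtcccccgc
Hyou1, chr8:53602676-53602829, plus strand: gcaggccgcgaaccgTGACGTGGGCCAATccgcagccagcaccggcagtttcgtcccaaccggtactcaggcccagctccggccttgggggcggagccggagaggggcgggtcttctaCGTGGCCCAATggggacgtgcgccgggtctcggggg
Xbp1, chr14:84604543-84604601, plus strand: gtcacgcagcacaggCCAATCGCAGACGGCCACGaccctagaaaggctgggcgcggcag
Calr, chr19:40213120-40213178, plus strand: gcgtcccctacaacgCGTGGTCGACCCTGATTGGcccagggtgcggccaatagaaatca
Herpud1, chr19:10614796-10614846, minus strand: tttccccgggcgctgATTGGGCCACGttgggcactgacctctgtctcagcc
In Hspa5 the ERSE match lay 43 to 25 bases before the annotated start. Hsp90b1 had an ERSE match on each strand. In Hyou1 the UPRE match overlapped the upstream ERSE-II match by sequence, and a further ERSE-II match lay 88 to 78 bases before the start. Xbp1 and Calr had an ERSE match each, and Herpud1 an ERSE-II match.

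A window of 300 bases, from 250 before to 50 after the start, was given for 33 of the 42 members. ERSE was found in 8 of the 33 (24.2%), namely Hspa5, Hsp90b1, Xbp1, Calr, Canx, Creld2, Dnajc3 and Derl3, against 8 of 9055 tested genes outside the list (0.0883%). ERSE-II was found in Hyou1, Herpud1 and Dnajb11 (9.09%), against 6 of the 9055 (0.0663%). UPRE was found in Hyou1, Dnajc10 and Sec23a (9.09%), against 90 of the 9055 (0.994%). Over all 27457 genes with a window, 0.0765% held ERSE, 0.0619% ERSE-II and 0.681% UPRE. The members were chosen by symbol as ER genes, and these elements were already known from many ER chaperone promoters. A higher share among the members was therefore likely beforehand, and the contrast was not tested. These are matches of letters in 1 window per start site, not measured binding sites, and a window without a match says only that the letters were not in it. Manf, Pdia3, Pdia6, Fkbp10, Ern1, Atf6, Derl1, Sec61a1 and Sec24d had no window in the table used.

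The members were abundant messages. Levels are in FPKM, a fragment count divided by transcript length and library size, as the authors deposited them, and are given as mean ± SD over 3 libraries where no single libraries are named. The members made up 1.55 ± 0.0251% of the summed FPKM in co-culture, 1.60 ± 0.00265% with IL-1β and 1.65 ± 0.00266% in control. Their own sum was 11101 ± 68.4 FPKM in co-culture, 11731 ± 179 FPKM with IL-1β and 11301 ± 134 FPKM in control. With IL-1β this sum was the highest but the share lay below control, since the FPKM sum of all genes also differed between groups. Of the 42 members 20 averaged over 100 FPKM. The lectin chaperone gene Calr had the highest mean of the members, 1670.5 ± 4.36 FPKM in co-culture, 1771 ± 47.1 FPKM with IL-1β and 1712 ± 8.78 FPKM in control. At the low end were the sensor gene Ern1, the prolyl 3-hydroxylation partner gene Crtap and the derlin gene Derl3. Crtap was listed near 0, at 0.63, 1.38 and 0.79 FPKM in co-culture, 0.61, 2.39 and 0.43 FPKM with IL-1β and 2.17, 0.42 and 1.36 FPKM in control, and its libraries varied too much to read a difference. Whether so low a listing reflects the message or its quantification was not tested. Derl3 had 0.67, 0.34 and 0.58 FPKM in co-culture, 0.87, 2.1 and 1.68 FPKM with IL-1β and 0.4, 0.36 and 0.32 FPKM in control, below the mean of 1 FPKM over the 9 libraries that a gene needed to be tested, so 41 members were tested. Its 3 IL-1β values lay above all 6 others.

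**Figure D1:**
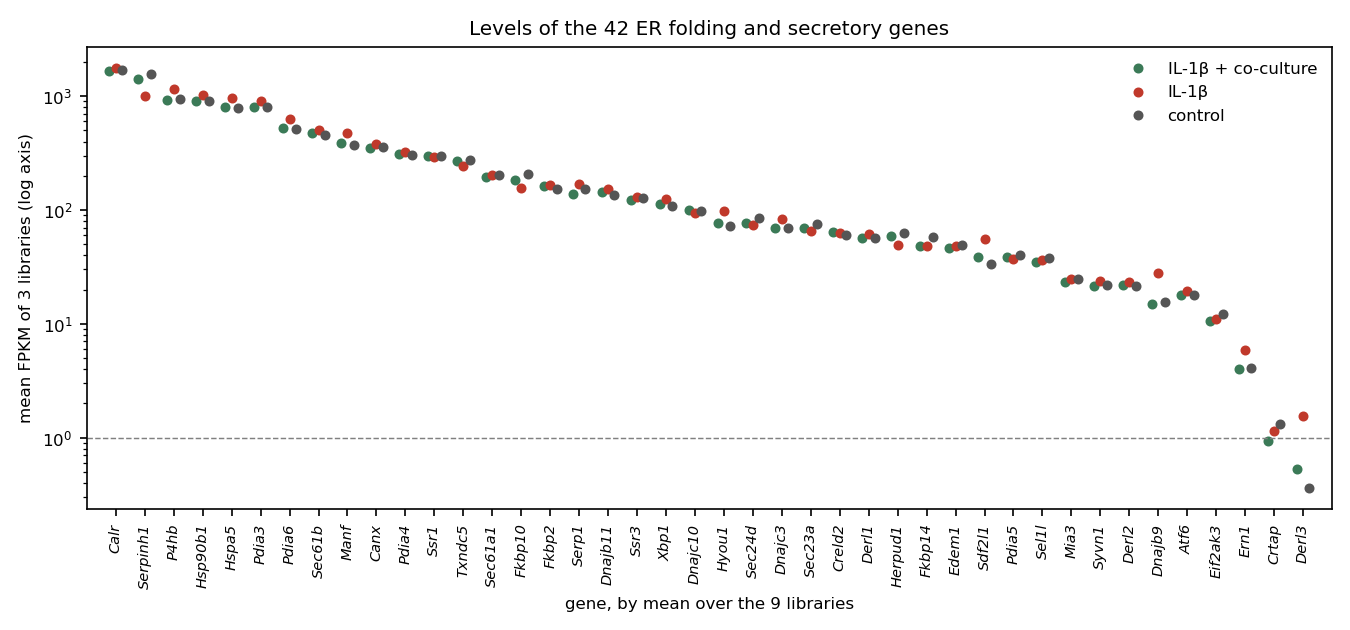
Mean FPKM of each of the 42 members (log axis) in co-culture (green), IL-1β (red) and control (grey), 3 libraries each, ordered by the mean over the 9 libraries; the dashed line marks 1 FPKM. The groups lie close together for most genes, and Derl3 is the gene below the line in co-culture and control whose IL-1β mean lies above it.

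The depth is unknown because the files give FPKM and no counts, and the precision rests on the spread between 3 libraries. Whether the 3 libraries of each group are separate animals, separate cultures or repeats of 1 culture is not in the labels. The p-values therefore reflect library-to-library spread, possibly technical spread alone. The submitters' processing notes name the mouse build GRCm38 whereas the rows carry rat gene identifiers. Levels of different genes are therefore less comparable than 1 gene across libraries. The FPKM sums per library were 704390 to 732280 in co-culture, 718500 to 741810 with IL-1β and 679770 to 696330 in control. The fit below used FPKM as deposited, without scaling to these sums. All 12 listed fibroblast markers were measured, with summed levels of 16603 to 17451 FPKM in co-culture, 16231 to 16980 in IL-1β and 17867 to 18173 in control libraries. Among markers of other cell types, 0 of 6 endothelial genes and 0 of the 3 B and plasma cell genes found reached a mean of 1 FPKM, and 1 of the 3 keratinocyte genes found (Krt10) did. Of 8 macrophage and leukocyte genes 4 did. The summed level of all 8 was 27.99 to 30.06 FPKM in co-culture, 37.36 to 41.47 with IL-1β and 28.09 to 29.99 in control. Ptprc, which all leukocytes express, stayed at 0.04 to 0.13 FPKM. The part of such cells in the member levels was not tested.

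Values were compared on the log2(FPKM + 1) scale with limma, with Benjamini-Hochberg adjustment over all 11372 genes tested and a threshold of 0.05; every adjusted p below is from this fit, and fold changes are log2 ± SE. With IL-1β, 19 of the 41 members were higher than in control (46.3%) and 8 lower (19.5%), while 14 did not pass. Of all genes tested 20.5% were higher and 31.2% lower. The members had a median log2 fold change of 0.10, and all genes one of -0.044. The changes were small: 0 of 41 members reached an absolute log2 fold change of 1, which 4.61% of all genes did together with the threshold, and the members ran from -0.65 to 0.81. Median-of-ratios scaling gave a split of 23 members higher and 7 lower with a median of 0.14, while 25.4% of all genes were then higher and 25.3% lower with a median of -0.0025. Quantile normalization gave 14 higher and 11 lower with a median of 0.022, and 21.7% and 30.3% of all genes with a median of -0.032.

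In co-culture, 6 of the 41 members were higher than with IL-1β alone (14.6%) and 19 lower (46.3%), against 33.3% higher and 16.7% lower among all genes. The median was -0.085 for the members and 0.061 for all genes. None of the 41 reached an absolute change of 1, which 2.62% of all genes did. After median-of-ratios scaling the split was 3 higher and 27 lower with a median of -0.15, and 23.9% of all genes were then higher and 23.2% lower with a median of 0.0025. Against control, 1 member was higher in co-culture (2.44%) and 8 were lower (19.5%), against 12.4% higher and 7.91% lower among all genes. Without control replicate 1 there were 4 lower, without control replicate 3 there were 5 lower and 2 higher, and after quantile normalization 15 were lower, with 10.3% of all genes lower. The median was -0.031 for the members and 0.018 for all genes, against -0.074 and -0.0056 after quantile normalization, and 0 of 41 passed an absolute change of 1, against 0.422% of all genes. The comparisons share libraries: the IL-1β libraries enter co-culture minus IL-1β and IL-1β minus control with opposite signs, so a high IL-1β value moves both, and the values are given side by side for that reason. The counts are for bulk RNA, in which fewer cells of a type and less RNA per cell cannot be told apart. The shares of all genes given for the 3 comparisons are also the background for the role groups of members below.

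**Figure D2:**
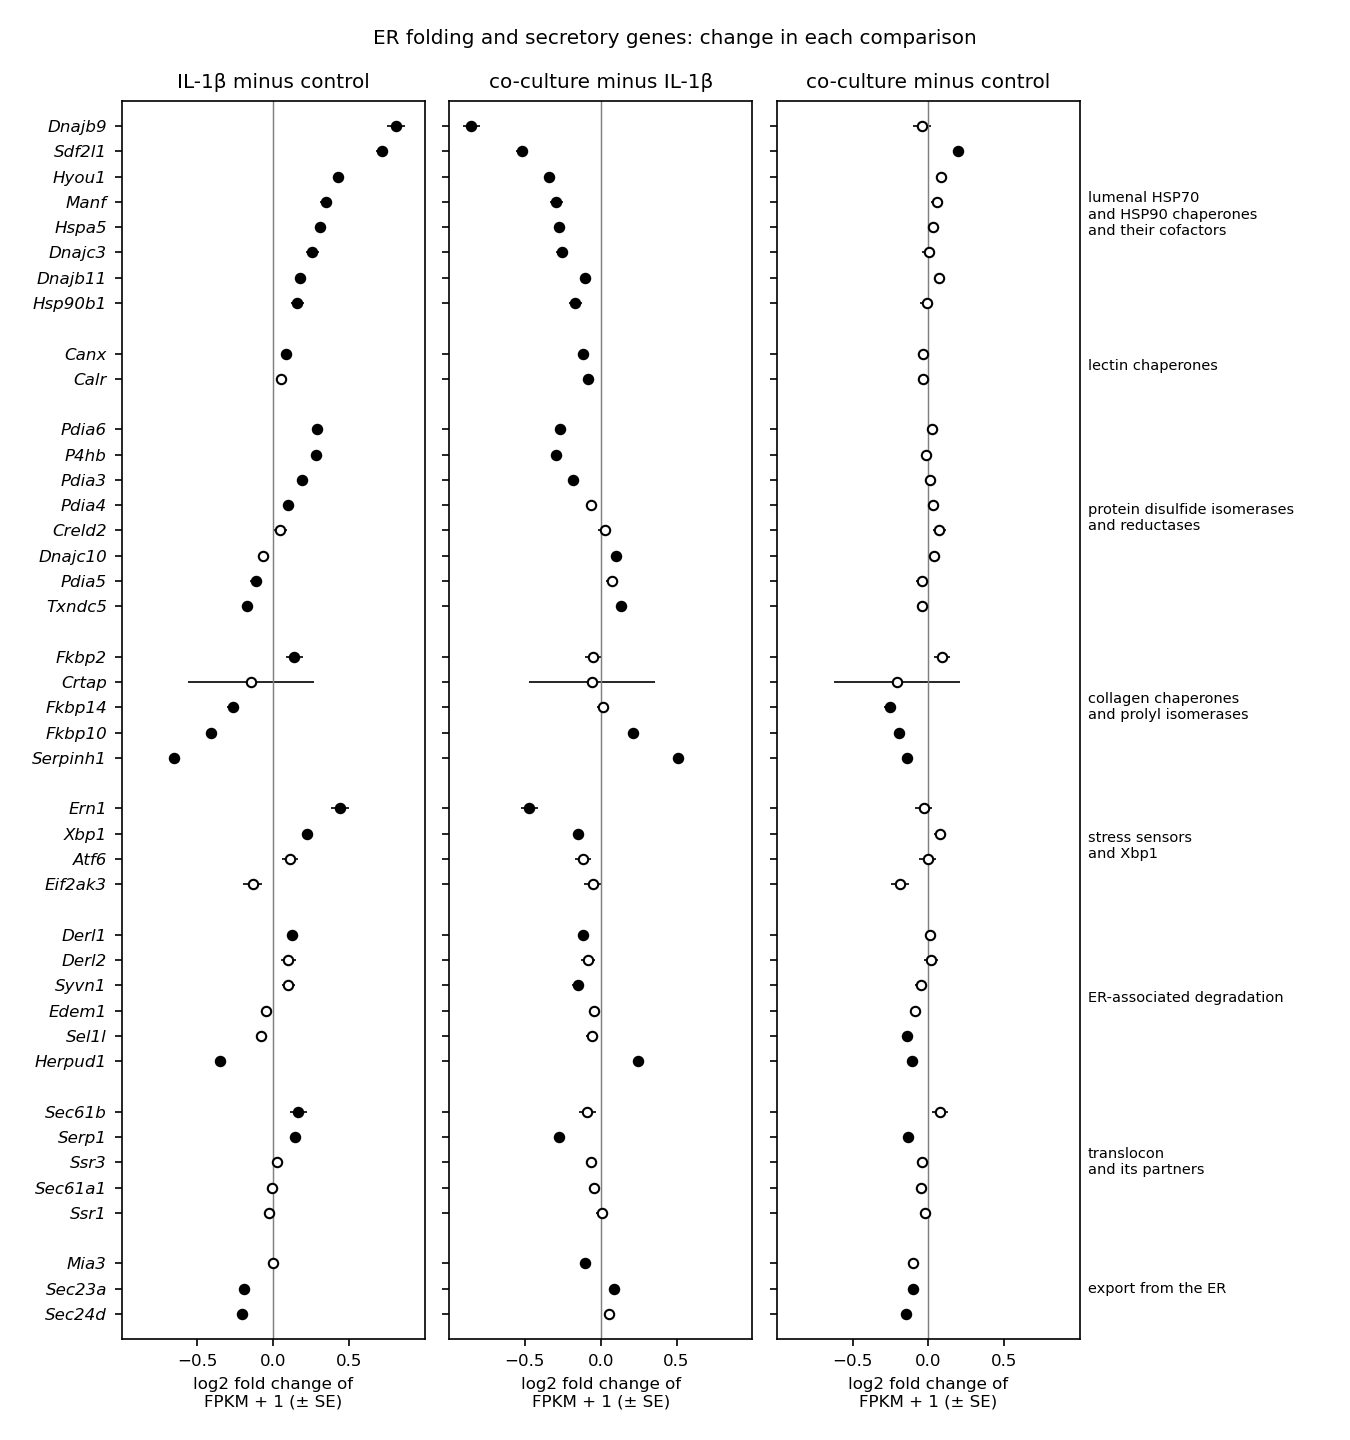
Log2 fold change of FPKM + 1 (x axis, ± SE from limma) of the 41 tested members in 3 comparisons (panels), grouped by role; filled circles passed an adjusted p of 0.05 and open circles did not. The 8 lumenal chaperone genes lie right of 0 in IL-1β minus control and left of 0 in co-culture minus IL-1β, and Serpinh1 lies farthest to the other side in both.

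The lumenal chaperones BiP and GRP94 and their cofactors were higher with IL-1β in all 8 members. The median log2 fold change was 0.33, and 8 of 8 passed in IL-1β minus control (7 of 8 after quantile normalization, without Hsp90b1). Co-culture minus IL-1β gave 0 higher and 8 lower of 8 with a median of -0.28 (7 lower after quantile normalization), and co-culture minus control gave 1 higher, 0 lower and 7 that did not pass. Hspa5 (gene ID 25617) encodes BiP, the HSP70 of the ER lumen, whose release from the stress sensors accompanies their activation. It had 807, 796 and 797 FPKM in co-culture, 945, 975 and 991 FPKM with IL-1β and 778, 769 and 803 FPKM in control. All 3 IL-1β libraries lay above the other 6, and the co-culture and control libraries overlapped. Hspa5 was higher with IL-1β than in control (0.31 ± 0.030, adjusted p = 4.2e-06) and lower in co-culture than with IL-1β (-0.28 ± 0.030, adjusted p = 1.4e-05). After quantile normalization the IL-1β change was 0.17 (adjusted p = 0.00036, range 5.9e-07 to 0.00036 over the 18 alternatives).

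Dnajb9 (24908) encodes ERdj4, a J-domain cofactor that hands misfolded proteins to BiP and is a known target of XBP1. It had 14.9, 14.4 and 15.4 FPKM in co-culture, 25.7, 28.5 and 29.1 FPKM with IL-1β and 16.1, 14.2 and 15.9 FPKM in control. Its IL-1β libraries lay far above the others, and co-culture and control overlapped. The change with IL-1β was 0.81 ± 0.059, adjusted p = 3.2e-07, the largest rise of the members, and that of co-culture minus IL-1β was -0.85 ± 0.059, adjusted p = 3.5e-07, the largest fall. Sdf2l1 (680945), which encodes a lumenal partner of ERdj3 and BiP, had 39.2, 40.2 and 37.2 FPKM in co-culture, 55.3, 56.6 and 56.6 FPKM with IL-1β and 33.3, 33.03 and 34.9 FPKM in control. Here the 3 groups did not overlap, and co-culture lay between the other groups. The changes of Sdf2l1 were 0.72 ± 0.037, adjusted p = 1.6e-08 for IL-1β minus control and -0.52 ± 0.037, adjusted p = 4.9e-07 for co-culture minus IL-1β. It was the only one of the 41 members to pass as higher in co-culture than in control (0.20 ± 0.037, adjusted p = 0.0029), although Creld2 also passed without control replicate 3.

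Hyou1 (192235) encodes GRP170, a nucleotide exchange factor of BiP, and had 75.8, 76.6 and 77.8 FPKM in co-culture, 99.7, 94.1 and 98.3 FPKM with IL-1β and 74.3, 72.2 and 70.4 FPKM in control. Again no IL-1β library overlapped the others. The changes were 0.42 ± 0.033, adjusted p = 5.8e-07 for IL-1β minus control and -0.34 ± 0.033, adjusted p = 6e-06 for co-culture minus IL-1β. Hsp90b1 (362862), the gene of the HSP90 of the ER lumen (GRP94), had 919.9, 881 and 907 FPKM in co-culture, 966, 1007 and 1076 FPKM with IL-1β and 901, 882 and 949 FPKM in control. The IL-1β values were the 3 highest, with a wide spread among them. It was higher with IL-1β (0.16 ± 0.043, adjusted p = 0.0091) and lower in co-culture than with IL-1β (-0.17 ± 0.043, adjusted p = 0.0065). After quantile normalization the rise of Hsp90b1 no longer passed (0.022, adjusted p = 0.6, range 0.0011 to 0.6 over the alternatives).

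The other 3 members of the group behaved alike in direction. Manf, the gene of a BiP-binding factor that is also secreted, had 388 ± 7.23 FPKM in co-culture, 475 ± 22.8 FPKM with IL-1β and 373 ± 15.3 FPKM in control (IL-1β minus control 0.35 ± 0.041, adjusted p = 2.2e-05; co-culture minus IL-1β -0.29 ± 0.041, adjusted p = 0.00011). Dnajc3, the gene of the J-domain protein p58IPK, had 69.6 ± 0.474 FPKM in co-culture, 83.5 ± 4.89 FPKM with IL-1β and 69.5 ± 2.11 FPKM in control (IL-1β minus control 0.26 ± 0.042, adjusted p = 0.00029; co-culture minus IL-1β -0.26 ± 0.042, adjusted p = 0.00036). Dnajb11, the gene of ERdj3, changed least of the 3 on the co-culture side: it had 143 ± 1.34 FPKM in co-culture, 154 ± 6.5 FPKM with IL-1β and 136 ± 2.47 FPKM in control, with 0.18 ± 0.033, adjusted p = 0.00092 for IL-1β minus control and -0.10 ± 0.033, adjusted p = 0.022 for co-culture minus IL-1β. The co-culture minus IL-1β call of Dnajb11 did not pass after quantile normalization or without co-culture replicate 1, co-culture replicate 3 or IL-1β replicate 2 (adjusted p 0.002 to 0.091 over the alternatives).

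**Figure D3:**
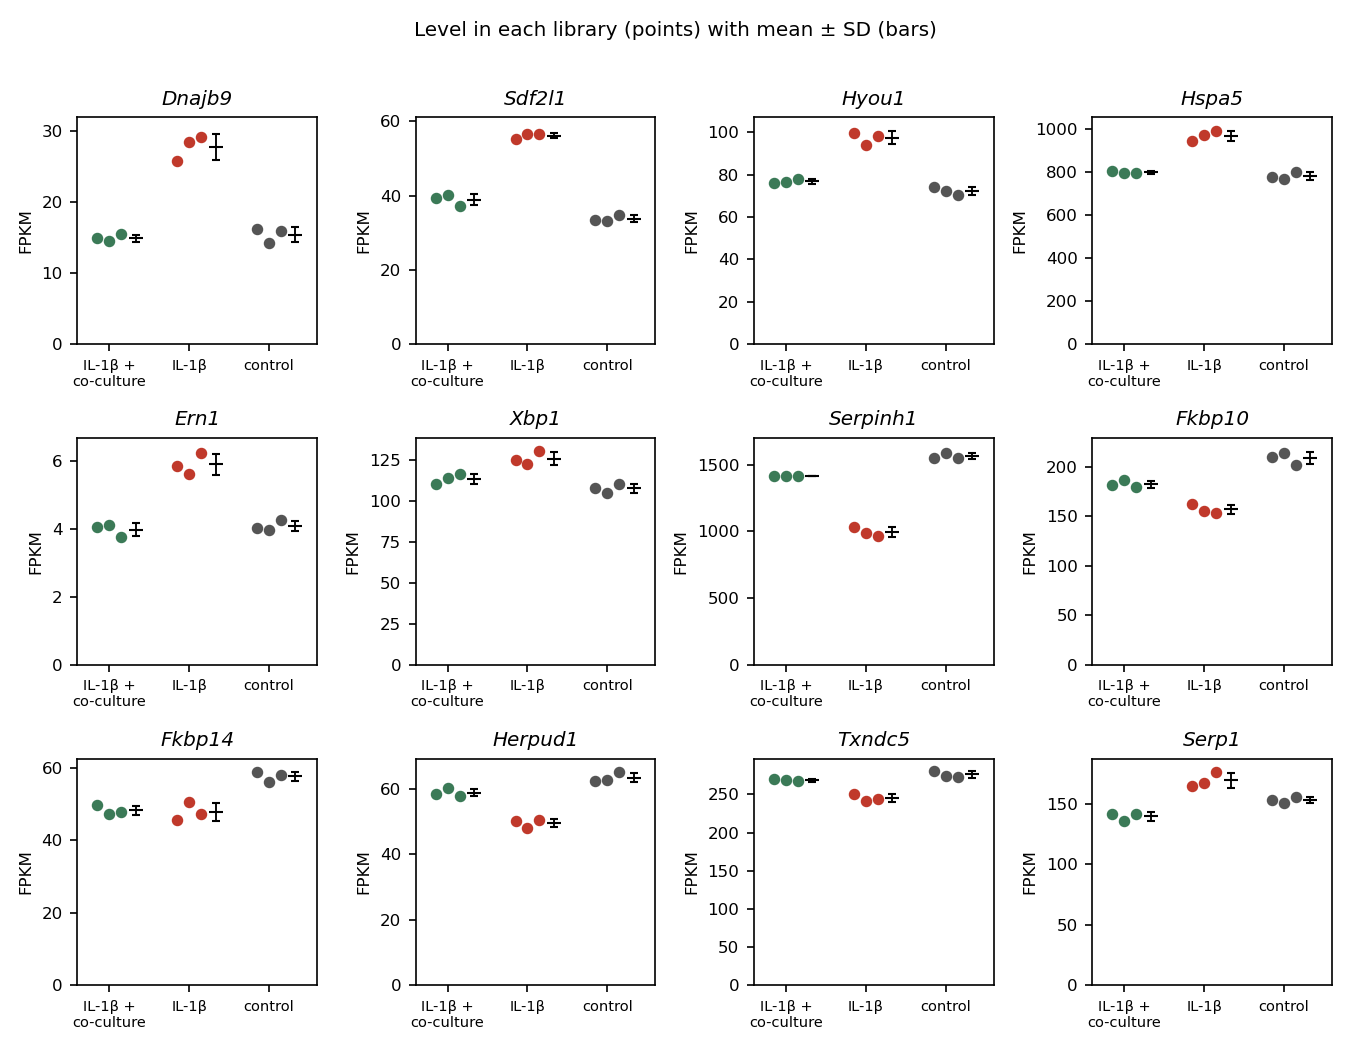
FPKM of 12 members in each library (points; y axis from 0) in co-culture, IL-1β and control, with mean ± SD of 3 libraries (bars). In the first 6 panels the IL-1β points are the highest, and in Serpinh1, Fkbp10, Herpud1 and Txndc5 they are the lowest, while in Fkbp14 co-culture and IL-1β share a level below control and in Serp1 co-culture is the lowest group.

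The lectin chaperones, which hold glycoproteins until they are folded, changed by under 8% of their level. Canx (calnexin) had 352 ± 2.06 FPKM in co-culture, 382 ± 9.26 FPKM with IL-1β and 359.5 ± 5.49 FPKM in control and was higher with IL-1β (0.087 ± 0.028, adjusted p = 0.022) and lower in co-culture than with IL-1β (-0.12 ± 0.028, adjusted p = 0.0042). The rise of Canx did not pass after quantile normalization or without IL-1β replicate 2, IL-1β replicate 3, control replicate 1 or control replicate 2 (adjusted p 0.0011 to 0.11 over the alternatives). Calr (calreticulin) did not pass in IL-1β minus control (0.049 ± 0.029, adjusted p = 0.18). It was lower in co-culture than with IL-1β (-0.084 ± 0.029, adjusted p = 0.029), a call that did not hold without co-culture replicates 1, 2 or 3 or IL-1β replicates 2 or 3, each left out alone, nor under 4 other settings (adjusted p 0.00078 to 0.19 over the alternatives).

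The disulfide isomerases and reductases did not move as a group. With IL-1β 4 of 8 were higher and 2 lower, but 2 higher and 3 lower after quantile normalization. In co-culture 2 were higher and 3 lower than with IL-1β (0 and 4 after median-of-ratios scaling), and 0 of 8 passed against control (2 lower after quantile normalization). P4hb encodes PDI, which is also a subunit of collagen prolyl 4-hydroxylase, and had 934 ± 5.93 FPKM in co-culture, 1148 ± 21.1 FPKM with IL-1β and 942 ± 12.2 FPKM in control. It was higher with IL-1β (0.28 ± 0.027, adjusted p = 4.1e-06) and lower in co-culture than with IL-1β (-0.30 ± 0.027, adjusted p = 4e-06), and after quantile normalization the IL-1β change was 0.18 and still passed. Pdia6, a BiP-associated isomerase gene, had 522 ± 6.12 FPKM in co-culture, 629 ± 10.3 FPKM with IL-1β and 514 ± 11.3 FPKM in control and changed likewise (0.29 ± 0.028, adjusted p = 4.6e-06 and, in co-culture minus IL-1β, -0.27 ± 0.028, adjusted p = 1.3e-05). After quantile normalization its IL-1β change was 0.19 and also passed.

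Pdia3, the gene of ERp57, which works with calnexin and calreticulin, had 807 ± 15.2 FPKM in co-culture, 915 ± 18.02 FPKM with IL-1β and 803 ± 18.99 FPKM in control. Its changes were 0.19 ± 0.030, adjusted p = 0.0003 for IL-1β minus control and -0.18 ± 0.030, adjusted p = 0.00048 for co-culture minus IL-1β, and quantile normalization ended the IL-1β call (0.037, adjusted p = 0.32, range 2.8e-05 to 0.32 over the alternatives). Pdia4, the gene of ERp72, had 309.9 ± 4.44 FPKM in co-culture, 324 ± 8.12 FPKM with IL-1β and 303 ± 3.33 FPKM in control and was higher with IL-1β (0.10 ± 0.028, adjusted p = 0.013). That call was lost after quantile normalization and without IL-1β replicate 3 (adjusted p 0.00073 to 0.84 over the alternatives).

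Txndc5 (100362805), the gene of the isomerase ERp46, moved the other way and had 271, 268 and 267 FPKM in co-culture, 250.4, 241 and 244 FPKM with IL-1β and 281, 274 and 273 FPKM in control. Its IL-1β libraries were the 3 lowest, and co-culture lay just below control without overlap. Txndc5 was lower with IL-1β (-0.17 ± 0.027, adjusted p = 0.00023) and higher in co-culture than with IL-1β (0.13 ± 0.027, adjusted p = 0.0017). Median-of-ratios scaling ended the co-culture minus IL-1β call (0.066, adjusted p = 0.064, range 0.0004 to 0.064 over the alternatives). Pdia5, a further isomerase gene, had 38.9 ± 1.6 FPKM in co-culture, 36.9 ± 1.17 FPKM with IL-1β and 40.0 ± 1.08 FPKM in control and was lower with IL-1β (-0.11 ± 0.040, adjusted p = 0.033), but not without IL-1β replicate 1 or 3 or control replicate 2 or 3, nor after median-of-ratios scaling, which gave -0.068 (adjusted p 0.024 to 0.2 over the alternatives). Dnajc10, the gene of the reductase ERdj5, had 100.2 ± 0.492 FPKM in co-culture, 93.3 ± 3.24 FPKM with IL-1β and 97.5 ± 3.16 FPKM in control and passed only as higher in co-culture than with IL-1β (0.10 ± 0.034, adjusted p = 0.026), and not without any of the co-culture replicates or IL-1β replicate 1, nor after either rescaling (adjusted p 0.022 to 0.37 over the alternatives). Creld2, a stress-inducible ER protein gene, stayed at 60.6 to 63.7 FPKM in the group means and passed in none of the 3 comparisons.

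Among the 5 collagen chaperones and prolyl isomerases, 3 fell with IL-1β and 1 was higher, under each scaling except that quantile normalization left 0 higher. In co-culture minus IL-1β 2 were higher and 0 lower, and in co-culture minus control 0 were higher and 3 lower, under each scaling tried. In the fit as reported, 20% were higher and 60% lower with IL-1β, against 20.5% and 31.2% of all genes. In co-culture minus IL-1β the shares were 40% and 0%, against 33.3% and 16.7% of all genes. In co-culture minus control they were 0% and 60%, against 12.4% and 7.91% of all genes. Serpinh1 (29345) encodes HSP47, the chaperone specific to procollagen, and had 1417, 1418 and 1417 FPKM in co-culture, 1033, 989.7 and 964 FPKM with IL-1β and 1553, 1588 and 1552 FPKM in control. The 3 groups were apart, with the co-culture libraries within 2 FPKM of each other and between the IL-1β and control libraries. Serpinh1 fell with IL-1β by the most of the 41 members (-0.65 ± 0.031, adjusted p = 8.1e-09), was higher in co-culture than with IL-1β (0.51 ± 0.031, adjusted p = 1.3e-07) and was lower in co-culture than in control (-0.14 ± 0.031, adjusted p = 0.0076). After quantile normalization the last difference was -0.25.

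Fkbp10 (360627), the gene of the prolyl isomerase FKBP65, which assists procollagen folding, had 182, 186 and 179.7 FPKM in co-culture, 163, 156 and 154 FPKM with IL-1β and 211, 215 and 202 FPKM in control. The groups were apart in the same order as for Serpinh1. The changes of Fkbp10 were -0.41 ± 0.033, adjusted p = 8.4e-07 for IL-1β minus control, 0.21 ± 0.033, adjusted p = 0.00025 for co-culture minus IL-1β and -0.20 ± 0.033, adjusted p = 0.0015 for co-culture minus control. Fkbp14 (362366), the gene of the related isomerase FKBP22, had 49.8, 47.3 and 47.7 FPKM in co-culture, 45.6, 50.5 and 47.4 FPKM with IL-1β and 58.8, 56.3 and 58.05 FPKM in control. Co-culture and IL-1β libraries overlapped and all 6 lay below control. Fkbp14 was lower than control with IL-1β (-0.27 ± 0.041, adjusted p = 0.00019) and in co-culture (-0.25 ± 0.041, adjusted p = 0.0011), and co-culture minus IL-1β did not pass (0.014 ± 0.041, adjusted p = 0.8). Fkbp2, a small ER prolyl isomerase gene, had 162 ± 9.72 FPKM in co-culture, 168 ± 1.74 FPKM with IL-1β and 152 ± 11.6 FPKM in control and was higher with IL-1β (0.14 ± 0.054, adjusted p = 0.048), but only narrowly: leaving out co-culture replicate 3, control replicate 1, control replicate 2 or any IL-1β replicate ended the call, as did 4 other settings, and without control replicate 1 the change was 0.090 (adjusted p 0.0061 to 0.2 over the alternatives).

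The levels of fibroblast and chondrocyte markers are given beside these genes. Serpinh1 was lowest with IL-1β and highest in control, an order of group means shared by 4 of the 12 fibroblast markers (Col1a1, Col1a2, Vim and S100a4). In 6 others, Dcn, Lum, Prg4, Cd55, Fap and Pdgfrb, the order was the reverse. In Pdgfra the mean was highest with IL-1β and lowest in co-culture, and in Thy1 it was highest in control and lowest in co-culture. These are orders of means alone: S100a4 passed in none of the comparisons, and Col1a2, Fap and Pdgfrb did not pass in co-culture minus control. Col1a1 had 2377, 2384 and 2348 FPKM in co-culture, 1650, 1550 and 1560 with IL-1β and 3227, 3243 and 3039 in control. Of 6 chondrocyte markers 5 were tested. The summed level of all 6 was 74.81 to 77.64 FPKM in co-culture, 22.86 to 25.09 with IL-1β and 183.19 to 195.87 in control. Col2a1 made up most of it and was not at 0 in any library. The order of Serpinh1 held for 4 of the 5 tested (Col2a1, Acan, Sox9 and Col9a1), while Matn3 had 1.26 ± 0.157 FPKM in co-culture, 0.803 ± 0.295 FPKM with IL-1β and 1.19 ± 0.280 FPKM in control. The part of these cells or messages in the levels of the collagen chaperone genes was not tested.

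The stress sensors differed from each other. With IL-1β 2 of the 4 sensor genes, counting Xbp1, were higher and 0 lower (3 and 0 after median-of-ratios scaling). In co-culture 2 were lower and 0 higher than with IL-1β, with Atf6 lower besides after either rescaling. Ern1 (498013) encodes IRE1, the kinase and nuclease that splices Xbp1 messenger RNA, and had 4.05, 4.13 and 3.78 FPKM in co-culture, 5.86, 5.63 and 6.25 FPKM with IL-1β and 4.04, 3.98 and 4.26 FPKM in control. The 3 IL-1β libraries were the highest, and co-culture and control overlapped. Ern1 was higher with IL-1β than in control (0.44 ± 0.057, adjusted p = 4.9e-05) and lower in co-culture than with IL-1β (-0.47 ± 0.057, adjusted p = 3.5e-05). As a low gene its change is understated by the log2(FPKM + 1) scale, and by the ratio of means it was 44.5% higher with IL-1β than in control and fell by 32.6% in co-culture relative to IL-1β.

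Xbp1 (289754), the transcription factor gene whose message IRE1 splices, had 110.4, 114 and 116 FPKM in co-culture, 125, 123 and 131 FPKM with IL-1β and 108, 105 and 111 FPKM in control. Its IL-1β libraries were above the other 6. The changes of Xbp1 were 0.22 ± 0.035, adjusted p = 0.00022 for IL-1β minus control and -0.15 ± 0.035, adjusted p = 0.0042 for co-culture minus IL-1β, and the table gives 1 value per gene, so spliced and unspliced forms are not separated. Atf6 (304962), the sensor that is cut to release a transcription factor, had 17.2, 17.5 and 18.8 FPKM in co-culture, 19.99, 18.1 and 20.4 FPKM with IL-1β and 18.2, 18.4 and 17.1 FPKM in control. Its groups overlapped, and it passed in none of the comparisons (0.11 ± 0.053, adjusted p = 0.099 for IL-1β minus control and -0.12 ± 0.053, adjusted p = 0.087 for co-culture minus IL-1β). Without IL-1β replicate 2 both passed, with changes of 0.16 and -0.17, and both also passed after median-of-ratios scaling. The co-culture minus IL-1β change of Atf6 further passed after quantile normalization and without co-culture replicate 3. Over the alternatives the adjusted p ranged from 0.025 to 0.28 for IL-1β minus control and from 0.016 to 0.25 for co-culture minus IL-1β. The PERK gene Eif2ak3 (29702), whose kinase damps translation, had 10.6, 10.6 and 10.8 FPKM in co-culture, 11.6, 9.84 and 11.96 FPKM with IL-1β and 12.2, 12.4 and 12.3 FPKM in control. All 6 co-culture and IL-1β values were below control, but Eif2ak3 narrowly missed the threshold in co-culture minus control (-0.19 ± 0.061, adjusted p = 0.051) and missed it in IL-1β minus control (-0.14 ± 0.061, adjusted p = 0.083). Over the alternatives the co-culture minus control p ranged from 0.0077 to 0.12 and passed in 6 of 18. The IL-1β minus control change of Eif2ak3 ran from -0.19 to -0.057 over the alternatives and passed without IL-1β replicate 3 (-0.19, adjusted p = 0.029). Co-culture minus IL-1β passed without IL-1β replicate 2 (-0.13, adjusted p = 0.034, range 0.034 to 0.99).

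Genes of ER-associated degradation, which returns misfolded proteins to the cytosol, changed little. With IL-1β 1 of the 6 tested was higher and 1 lower (3 and 1 after either rescaling). In co-culture 1 was higher and 2 lower than with IL-1β (1 and 5 with median-of-ratios scaling, 1 and 4 under quantile normalization), and 0 were higher and 2 lower than control. In the fit as reported, 16.7% were higher and 16.7% lower with IL-1β, against 20.5% and 31.2% of all genes. In co-culture minus IL-1β the shares were 16.7% and 33.3%, against 33.3% and 16.7% of all genes. In co-culture minus control they were 0% and 33.3%, against 12.4% and 7.91% of all genes. Herpud1 (85430) encodes a scaffold of the HRD1 ubiquitin ligase and is widely used as a marker of the unfolded protein response. It had 58.3, 60.03 and 57.9 FPKM in co-culture, 49.95, 48.05 and 50.3 FPKM with IL-1β and 62.4, 62.6 and 65.04 FPKM in control. The IL-1β libraries were the lowest, opposite to Hspa5, and co-culture lay between IL-1β and control. Herpud1 fell with IL-1β (-0.35 ± 0.032, adjusted p = 2.9e-06) and was higher in co-culture than with IL-1β (0.24 ± 0.032, adjusted p = 7.7e-05). Its co-culture minus control difference (-0.11 ± 0.032, adjusted p = 0.038) did not pass without co-culture replicates 1 or 3 or any control replicate (adjusted p 0.008 to 0.12 over the alternatives).

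Derl1, the gene of a membrane factor of the same route, had 56.7 ± 1.47 FPKM in co-culture, 61.6 ± 1.38 FPKM with IL-1β and 56.3 ± 0.826 FPKM in control and was higher with IL-1β (0.13 ± 0.032, adjusted p = 0.0056) and lower in co-culture than with IL-1β (-0.12 ± 0.032, adjusted p = 0.009). Syvn1, which encodes the ligase HRD1 itself, had 21.3 ± 0.179 FPKM in co-culture, 23.7 ± 0.872 FPKM with IL-1β and 22.1 ± 0.796 FPKM in control and passed only as lower in co-culture than with IL-1β (-0.15 ± 0.040, adjusted p = 0.0095). Sel1l, the adaptor of HRD1, had 34.6 ± 0.147 FPKM in co-culture, 36.1 ± 1.38 FPKM with IL-1β and 38.2 ± 0.35 FPKM in control and passed only as lower in co-culture than in control (-0.14 ± 0.034, adjusted p = 0.014), and not without control replicate 1 (adjusted p 0.0036 to 0.053 over the alternatives). Derl2 and the mannosidase-like gene Edem1 passed in none of the 3 comparisons in the fit as reported. Their log2 fold changes were 0.10 and -0.045 in IL-1β minus control. After either rescaling Derl2 passed as higher with IL-1β (adjusted p 0.019 to 0.23 over the alternatives). It then also passed as lower in co-culture than with IL-1β (0.019 to 0.39), and Edem1 as lower in co-culture than in control (0.023 to 0.19). Either rescaling also made Syvn1 pass as higher with IL-1β and Sel1l as lower in co-culture than with IL-1β.

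At the translocon, 2 of 5 members were higher with IL-1β and 0 lower, but 0 higher and 2 lower (Sec61a1 and Ssr1) after quantile normalization. In co-culture 0 were higher and 1 lower than with IL-1β (4 lower after median-of-ratios scaling). Serp1 (80881) encodes RAMP4, a small stress-associated partner of Sec61, and had 141, 135 and 141 FPKM in co-culture, 164, 167 and 176 FPKM with IL-1β and 153, 151 and 155 FPKM in control. The 3 groups were apart, with co-culture the lowest and IL-1β the highest. Serp1 was higher with IL-1β than in control (0.14 ± 0.033, adjusted p = 0.0035), lower in co-culture than with IL-1β (-0.28 ± 0.033, adjusted p = 3.4e-05) and also lower in co-culture than in control (-0.13 ± 0.033, adjusted p = 0.015). It was the only member to pass against control with IL-1β in 1 direction and in co-culture in the other in the fit as reported. After quantile normalization Serp1 did not show this and P4hb did. The rise of Serp1 did not pass after quantile normalization (0.072, range of adjusted p 0.00027 to 0.068 over the alternatives), and the co-culture minus control call was lost without co-culture replicate 2, control replicate 1 or control replicate 3 (range 0.0012 to 0.066).

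Sec61b, a subunit of the channel, had 479 ± 30.1 FPKM in co-culture, 508 ± 26.5 FPKM with IL-1β and 453 ± 22.3 FPKM in control and was higher with IL-1β (0.17 ± 0.053, adjusted p = 0.022), but not after quantile normalization or without IL-1β replicates 2 or 3 or control replicates 1 or 2 (adjusted p 0.0045 to 0.28 over the alternatives). Sec61a1, the pore subunit gene, had 195 ± 1.8 FPKM in co-culture, 201 ± 5.32 FPKM with IL-1β and 202 ± 1.23 FPKM in control and passed in none of the comparisons. The translocon-associated genes Ssr1 and Ssr3 also passed in none, with changes of -0.029 and 0.023 in IL-1β minus control.

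Of the 3 export genes 2 were lower with IL-1β and 0 higher under each scaling tried. In the fit as reported this was 66.7% lower and 0% higher, against 31.2% lower and 20.5% higher among all genes. Sec24d (310843), a cargo-binding subunit of the COPII coat that procollagen export depends on, had 76.7, 78.7 and 75.4 FPKM in co-culture, 74.9, 72.4 and 75.01 FPKM with IL-1β and 85.9, 86.4 and 83.9 FPKM in control. All 6 co-culture and IL-1β libraries lay below control. Sec24d was lower than control with IL-1β (-0.20 ± 0.030, adjusted p = 0.00015) and in co-culture (-0.15 ± 0.030, adjusted p = 0.0046). Sec23a, its partner in the inner coat, had 70.03 ± 0.621 FPKM in co-culture, 65.8 ± 1.8 FPKM with IL-1β and 75.2 ± 1.29 FPKM in control and fell with IL-1β (-0.19 ± 0.030, adjusted p = 0.00026). The co-culture minus IL-1β change of Sec23a was 0.088 ± 0.030 (adjusted p = 0.03), and its co-culture minus control change -0.10 ± 0.030 (adjusted p = 0.034). Both calls were lost when any co-culture replicate was left out. The co-culture minus IL-1β call was also lost without IL-1β replicates 1 or 2, after either rescaling and under other settings (adjusted p 0.014 to 0.53 over the alternatives). The co-culture minus control call was also lost when any control replicate was left out and under another setting (adjusted p 0.0036 to 0.11). Mia3, the gene of TANGO1, which loads procollagen into vesicles, had 23.1 ± 0.721 FPKM in co-culture, 24.9 ± 0.555 FPKM with IL-1β and 24.9 ± 0.157 FPKM in control and did not pass with IL-1β (0.00070 ± 0.036, adjusted p = 0.99). It was lower in co-culture than with IL-1β (-0.10 ± 0.036, adjusted p = 0.035). That call was lost without co-culture replicates 1 or 2 or IL-1β replicates 1 or 3, and with the compared groups alone (adjusted p 0.003 to 0.12 over the alternatives). In co-culture minus control Mia3 did not pass (-0.10 ± 0.036, adjusted p = 0.072), but it passed as lower after either rescaling (adjusted p 0.02 to 0.22).

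The members with an ERSE or ERSE-II match, shown or named above, numbered 11, of which 10 were tested. With IL-1β 7 of the 10 were higher, 1 (Herpud1) was lower and Calr and Creld2 did not pass, with a median log2 fold change of 0.17. Of the 22 members with a window and neither match 7 were higher and 5 lower, with a median of -0.014. Among all genes tested 20.5% were higher and 31.2% lower. In co-culture minus IL-1β 1 of the 10 was higher and 8 were lower, against 4 higher and 6 lower of the 22. Here 33.3% of all genes were higher and 16.7% lower. Hspa5, Hsp90b1, Hyou1, Dnajb11 and Dnajc3, which had a match, belong to the lumenal chaperone group, in which 8 of 8 were higher with IL-1β. The members with the 2 largest rises, Dnajb9 and Sdf2l1, had no match in their windows, and Ern1 had no window. These counts are descriptions and were not tested.

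Another 99 genes of the secretory route, listed by role, were all found and tested. With IL-1β 36 were higher and 24 lower, in co-culture 21 were higher and 32 lower than with IL-1β, and against control 7 were higher and 14 lower. As shares of the 99 these were 36.4% and 24.2%, 21.2% and 32.3%, and 7.07% and 14.1%, against the 20.5% and 31.2%, 33.3% and 16.7%, and 12.4% and 7.91% of all genes. The same shares of all genes are the background for the lists that follow. The median log2 fold changes of the 99 were 0.022, -0.045 and -0.014 in the same order of comparisons.

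Among 10 other oxidative folding genes 5 were higher and 1 lower with IL-1β (3 and 2 after quantile normalization). Ero1b, a disulfide-generating oxidase gene, had 4.25 ± 0.11 FPKM in co-culture, 8.3 ± 0.242 FPKM with IL-1β and 3.74 ± 0.258 FPKM in control (0.97 ± 0.055, adjusted p = 3.7e-08 for IL-1β minus control and -0.82 ± 0.055, adjusted p = 2.9e-07 for co-culture minus IL-1β). Its paralog Ero1a rose to 77.7 ± 1.03 FPKM with IL-1β, against 65.6 ± 0.191 FPKM in control (0.24 ± 0.027, adjusted p = 1.8e-05). Tmx3, a membrane-bound isomerase gene, was the one that fell (-0.26 ± 0.047, adjusted p = 0.00069). In co-culture Selenof, a selenoprotein gene listed as Sep15, was lower than with IL-1β (-0.16 ± 0.031, adjusted p = 0.001), and Tmx4, of the Tmx3 family, was higher than in control (0.20 ± 0.039, adjusted p = 0.0031). Erp29 was higher in co-culture than with IL-1β (0.081 ± 0.031, adjusted p = 0.047), a call that 12 of 18 alternatives ended (adjusted p 0.03 to 0.68). Of 16 genes of signal recognition, translocation and signal peptide cleavage 12 were higher and 0 lower with IL-1β (7 and 0 after quantile normalization), and 0 were higher and 8 lower in co-culture than with IL-1β. The ER-associated HSP70 gene Hspa13 (0.35 ± 0.066, adjusted p = 0.00098) and Srprb, a subunit of the signal recognition particle receptor (0.24 ± 0.046, adjusted p = 0.0011), had the smallest p among those that rose. In co-culture Srp54, the signal recognition particle subunit that binds the signal sequence (listed as Srp54a), was lower than with IL-1β (-0.17 ± 0.038, adjusted p = 0.0032), as was Tram1, a translocon partner (-0.12 ± 0.026, adjusted p = 0.0034).

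Of 16 other degradation genes 7 were higher and 1 lower with IL-1β, and 1 was higher and 9 lower in co-culture than with IL-1β. Selenos, a selenoprotein of the retrotranslocation complex listed as Vimp, had 152 ± 7.51 FPKM in co-culture, 197 ± 9.64 FPKM with IL-1β and 154 ± 3.86 FPKM in control (0.35 ± 0.044, adjusted p = 3.9e-05 for IL-1β minus control and -0.37 ± 0.044, adjusted p = 3.4e-05 for co-culture minus IL-1β). Nploc4, a cofactor of the VCP ATPase, rose with IL-1β (0.24 ± 0.033, adjusted p = 0.0001) and Edem2, of the mannosidase family that marks glycoproteins for degradation, fell (-0.19 ± 0.046, adjusted p = 0.0054). In co-culture the ubiquitin-conjugating enzyme gene Ube2g2 was lower than with IL-1β (-0.23 ± 0.033, adjusted p = 0.00015) and Edem2 higher (0.14 ± 0.046, adjusted p = 0.026), and that call was ended by 6 of 18 alternatives, both rescalings among them (adjusted p 0.013 to 0.21). Against control Ufd1, listed as Ufd1l and a further VCP cofactor, was higher (0.13 ± 0.033, adjusted p = 0.014, lost without co-culture replicate 1) and Fam8a1 lower (-0.13 ± 0.040, adjusted p = 0.046, lost in 12 of 18 alternatives, adjusted p 0.021 to 0.16). Of 12 genes of N-glycan transfer and the calnexin cycle 2 were higher and 4 lower with IL-1β, a split that turned to 5 and 2 after median-of-ratios scaling. The glucosyltransferase gene Uggt1, which marks unfolded glycoproteins, was higher (0.11 ± 0.032, adjusted p = 0.015, not passing without control replicate 3) and its paralog Uggt2 lower (-0.29 ± 0.040, adjusted p = 0.0001). Of the oligosaccharyltransferase subunit genes, Dad1 was higher with IL-1β (0.16 ± 0.034, adjusted p = 0.0017, but adjusted p = 0.25 after quantile normalization) and Rpn1 lower (-0.12 ± 0.028, adjusted p = 0.0029). In co-culture Rpn1 (0.14 ± 0.028, adjusted p = 0.0019) and Stt3b (0.10 ± 0.029, adjusted p = 0.015) were higher than with IL-1β, and neither passed after median-of-ratios scaling, nor did Stt3b without co-culture replicate 3 (adjusted p up to 0.054 for Rpn1 and 0.34 for Stt3b over the alternatives). Dad1 was also higher in co-culture than in control (0.12 ± 0.034, adjusted p = 0.032), a call that 11 of 18 alternatives ended (adjusted p 0.0078 to 0.43). Mogs, named after its values were seen and listed as Gcs1, had 6.34, 0.16 and 3.35 FPKM in co-culture, 13.6, 4.12 and 3.16 FPKM with IL-1β and 13.5, 5.07 and 9.41 FPKM in control, and its groups overlapped widely.

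Of 19 genes of the COPII coat and of cargo and KDEL receptors 4 were higher and 3 lower with IL-1β (4 and 7 after quantile normalization), and 2 were higher and 6 lower in co-culture than with IL-1β. Surf4, a cargo receptor gene, had 378 ± 8.81 FPKM in co-culture, 472 ± 5.7 FPKM with IL-1β and 359 ± 1.38 FPKM in control (0.39 ± 0.027, adjusted p = 2.3e-07 for IL-1β minus control and -0.32 ± 0.027, adjusted p = 2e-06 for co-culture minus IL-1β). Sec23b rose with IL-1β (0.28 ± 0.038, adjusted p = 7e-05), unlike its paralog Sec23a above. Kdelr3, a receptor that returns lumenal proteins to the ER, fell (-0.29 ± 0.030, adjusted p = 7.7e-06) and was higher in co-culture than with IL-1β (0.20 ± 0.030, adjusted p = 0.00017). Sec31a, of the outer coat, fell with IL-1β (-0.21 ± 0.032, adjusted p = 0.0002) and was higher in co-culture than with IL-1β (0.12 ± 0.032, adjusted p = 0.01), though not after median-of-ratios scaling (adjusted p up to 0.18). Against control the cargo receptor subunit gene Mcfd2 was higher in co-culture (0.10 ± 0.033, adjusted p = 0.047), and the exit site gene Sec16a (-0.11 ± 0.034, adjusted p = 0.039) and Mia2, listed as LOC100912115 (-0.12 ± 0.039, adjusted p = 0.049), were lower. Of 18 alternatives 13, 8 and 11 ended these 3 calls (adjusted p up to 0.25, 0.12 and 0.14).

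Of 12 other collagen hydroxylation and folding genes 3 were higher and 7 lower with IL-1β, with a median log2 fold change of -0.31. In co-culture 7 were higher and 2 lower than with IL-1β (5 and 4 after median-of-ratios scaling), and 1 was higher and 4 lower than control. P4ha1 and P4ha2 encode catalytic subunits of collagen prolyl 4-hydroxylase, the partners of P4hb, and moved in opposite directions with IL-1β. P4ha1 had 257 ± 2.32 FPKM in co-culture, 186 ± 7.96 FPKM with IL-1β and 279 ± 4.62 FPKM in control (-0.59 ± 0.033, adjusted p = 3.4e-08 for IL-1β minus control and 0.47 ± 0.033, adjusted p = 4.1e-07 for co-culture minus IL-1β). P4ha2 had 123 ± 3.37 FPKM in co-culture, 198 ± 4.26 FPKM with IL-1β and 105 ± 0.83 FPKM in control (0.91 ± 0.030, adjusted p = 2.6e-10 and -0.69 ± 0.030, adjusted p = 5.7e-09). Colgalt1, a collagen galactosyltransferase gene, fell with IL-1β (-0.50 ± 0.027, adjusted p = 2.6e-08), and the isomerase gene Fkbp11 rose (0.41 ± 0.045, adjusted p = 1.3e-05), opposite to Fkbp10 and Fkbp14. P4ha3, the other catalytic subunit gene, was higher in co-culture than with IL-1β (0.41 ± 0.033, adjusted p = 1.3e-06). P3h1, a prolyl 3-hydroxylase gene (-0.26 ± 0.040, adjusted p = 0.00073), and the isomerase gene Fkbp9 (-0.16 ± 0.026, adjusted p = 0.0011) were lower in co-culture than in control.

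Of 14 genes of the PERK branch and other stress transcription factors 3 were higher and 8 lower with IL-1β. In co-culture 6 were higher and 2 lower than with IL-1β (4 and 5 after median-of-ratios scaling), and 1 was higher and 6 lower than control. Chac1, a glutathione-degrading enzyme gene downstream of ATF4, had 5.36 ± 0.296 FPKM in co-culture, 3.24 ± 0.666 FPKM with IL-1β and 10.1 ± 0.815 FPKM in control (-1.40 ± 0.10, adjusted p = 2.7e-07 for IL-1β minus control and -0.81 ± 0.10, adjusted p = 0.00016 for co-culture minus control). Trib3, a pseudokinase gene of the same branch, had 9.8 ± 0.707 FPKM in co-culture, 8.68 ± 0.865 FPKM with IL-1β and 18.6 ± 0.738 FPKM in control (-1.02 ± 0.070, adjusted p = 2e-07 and -0.86 ± 0.070, adjusted p = 5.6e-06). The gene for CHOP, Ddit3, was lower with IL-1β (-0.51 ± 0.050, adjusted p = 5.8e-06) and higher in co-culture than with IL-1β (0.28 ± 0.050, adjusted p = 0.00068). Ppp1r15a, whose product GADD34 reverses the PERK signal, rose with IL-1β (0.51 ± 0.049, adjusted p = 4e-06) and was lower in co-culture than with IL-1β (-0.48 ± 0.049, adjusted p = 9.3e-06). Atf6b, the ATF6 paralog, was higher than in control with IL-1β (0.32 ± 0.035, adjusted p = 1.2e-05) and in co-culture (0.24 ± 0.035, adjusted p = 0.00051). Creb3, an ER-bound transcription factor gene, was lower in co-culture than with IL-1β (-0.15 ± 0.029, adjusted p = 0.001).

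**Figure D4:**
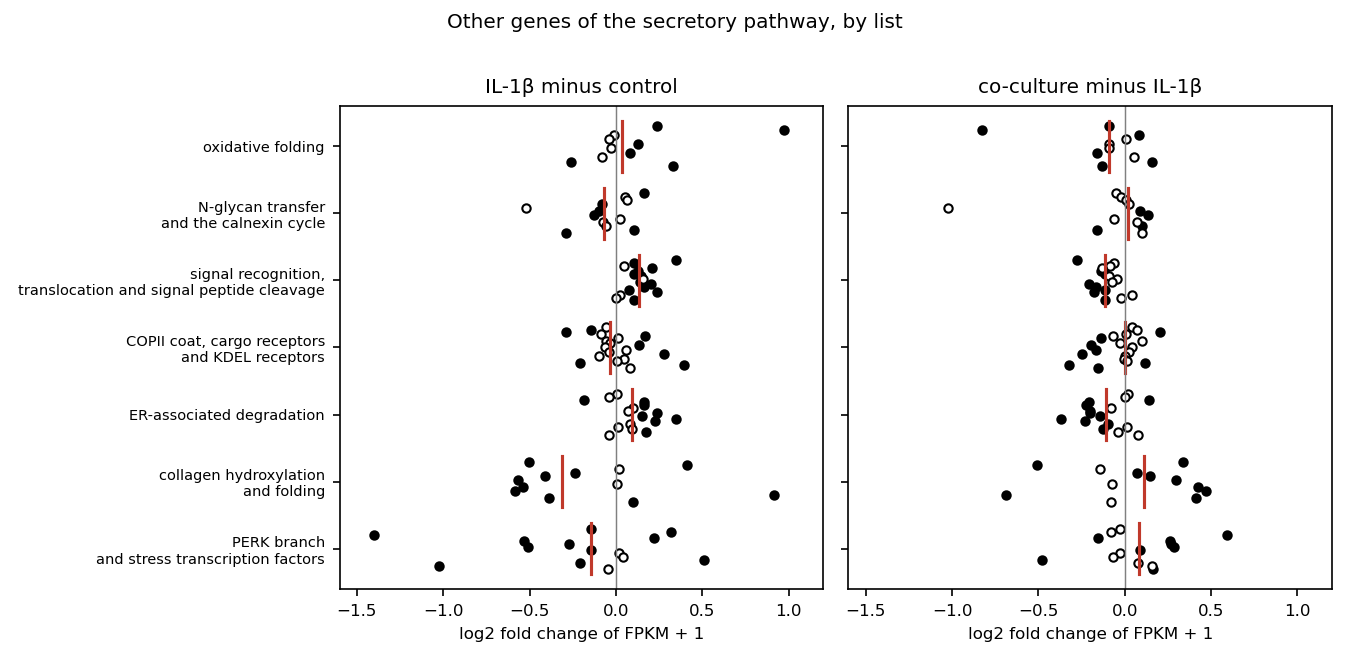
Log2 fold change of FPKM + 1 (x axis) of the 99 other secretory pathway genes by list (rows) in IL-1β minus control and co-culture minus IL-1β; filled circles passed an adjusted p of 0.05, open circles did not, and red lines are list medians. In IL-1β minus control the collagen hydroxylation list has the lowest median, -0.31, and the signal recognition list the highest, 0.13.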

How the data were processed

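Messenger RNA was measured in 9 libraries of rat synovial fibroblasts, 3 per group, and samples were grouped by their titles. The authors deposited FPKM values for 17298 genes with 2 decimals, per the file headers, 1 column per library. Per the submitters' processing notes the build was GRCm38, while aligner, quantifier and annotation were not stated in any source used here. FPKM is relative within a library, so a few abundant genes that rise lower all others. The depth is unknown.

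From the deposited FPKM values, log2(FPKM + 1) was computed for the 11372 genes with a mean of at least 1 FPKM, which understates the change of low genes. A linear model with a mean for each group was fitted over the 9 libraries (limma 3.58.1, R 4.3.3) and moderated by empirical Bayes with trend and robust settings. Two-sided p-values were corrected by Benjamini-Hochberg over all 11372 genes. The fit was tested on simulated data. The alternatives were pseudocounts of 0.1 and 0.5, no filter or a filter at 5 FPKM, median-of-ratios scaling, quantile normalization, a replicate block, plain empirical Bayes, the compared groups alone, and each library left out in turn.

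The members and lists were chosen with earlier results of these data known. Library values are given for Hspa5, Hsp90b1, Xbp1, Ern1, Eif2ak3 and Atf6, for the 4 largest rises and falls past the threshold in each comparison, and for members that passed against control in opposite directions; from each other list the text names, in each comparison, up to 2 genes with the smallest p in each direction among those past the threshold, and Mogs besides. Of the 99 other genes 7 are listed under another symbol. Motifs were searched in RefSeq promoter windows (GRCr8); no coordinates come from the deposited files.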

Additional observations from a re-analysis of the deposited data

How the results depend on the processing

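Over the 18 alternatives per comparison, 2080 of 2208 results for single members kept their direction and their side of the threshold, or changed sign without passing in either (55 of these). Of the others, 83 no longer passed, 44 passed newly and 1 reversed: Pdia3 in co-culture minus control was -0.11 after quantile normalization (adjusted p = 0.019, range 0.019 to 0.99) and 0.0077 without it, which did not pass. In co-culture minus IL-1β, 3 members were higher after median-of-ratios scaling, against 6. In co-culture minus control, 15 were lower after quantile normalization, against 8. With 1 library left out, the members lower in co-culture minus control ranged from 4 (without control replicate 1) to 9, with 5 without control replicate 3, and those higher from 1 to 2 (without control replicate 3). The causes were not tested. The other counts ranged, with 1 library left out, from 16 to 19 higher and 7 to 8 lower for IL-1β minus control and from 4 to 6 higher and 16 to 20 lower for co-culture minus IL-1β.

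With a replicate block, 19 members were higher and 8 lower in IL-1β minus control, 6 and 18 in co-culture minus IL-1β, and 1 and 7 in co-culture minus control. Whether same-numbered libraries belong together is not in the labels, and the correlations between libraries could not settle it. Deviations of same-numbered libraries correlated at -0.046 to 0.189 across genes, over 0.1 in 1 of 9 pairs, and those of other pairs at -0.221 to 0.133. The best match carried the same number in 6 of 9 cases. Without counts, the precision at low levels could not be given, which touches Crtap, Derl3 and Ern1 most.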
